A study of Mus musculus with 8 samples.

Results

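The genes described here are the 10 cyclin-dependent kinase (CDK) inhibitor and pocket protein genes Cdkn1a, Cdkn1b, Cdkn1c, Cdkn2a, Cdkn2b, Cdkn2c, Cdkn2d, Rb1, Rbl1 and Rbl2. They were chosen by name, as the complete Cip/Kip, Ink4 and pocket protein families, and all 10 were measured among the 24011 named genes of the series. RNA came from bone marrow of adult C57BL/6 mice, sorted into Lin+ cells (4 arrays), which carry surface antigens of mature blood lineages, and HSC-enriched cells (4 arrays), a rare fraction that holds most haematopoietic stem cells. The sample labels define the second population as CD48-negative, CD105-positive cells of the LSK fraction, which lacks lineage antigens and carries Sca-1 and Kit, whereas the series' design text has CD150 and no CD105. No treatment or genotype other than the strain is given, and the labels do not say whether the samples came from separate animals or from pools, so the tests speak only to variation among these arrays, which may be technical. Values are deposited log2 RMA levels on 1-colour arrays, and a difference is the HSC-enriched mean minus the Lin+ mean.

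CDK inhibitors and pocket proteins form one brake on entry into S phase. Ink4 proteins bind the kinases that partner D-type cyclins, Cip/Kip proteins bind cyclin-kinase complexes of G1 and S phase more broadly, and both keep the pocket proteins in their active, underphosphorylated form. Active pocket proteins bind E2F transcription factors and so limit the expression of E2F target genes. Rb1 mainly binds and holds in check the E2F factors that activate. Rbl1 and Rbl2 mainly act together with those that repress, as part of the DREAM complex with the MuvB core. Most adult haematopoietic stem cells are quiescent, and Cdkn1c and the pocket proteins are known from knockout mice to help keep them so.

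The sort was checked on marker lists. All 9 measured HSC markers were higher in HSC-enriched cells, with per-array means of 8.82 to 8.95 against 5.73 to 5.78 in Lin+ cells, although Kit and either Eng or Slamf1 belonged to the gate. Neutrophil markers averaged 6.61, 6.57, 9.20 and 8.78 on HSC-enriched replicates 1 to 4 against 11.56 to 11.88 on Lin+ arrays, and 1 of 10 lay near background in HSC-enriched cells. B cell markers averaged 4.88 to 5.09 on HSC-enriched replicates 1, 2 and 4 and 6.75 on replicate 3, against 9.99 to 10.60. Erythroid markers averaged 4.82 to 5.72 against 8.11 to 8.91, monocyte and macrophage markers 5.07 to 5.65 against 8.22 to 8.78, and T and NK cell markers 4.64 to 4.98 against 7.41 to 7.69. In HSC-enriched cells 4 of 9 B cell, 3 of 8 erythroid, 6 of 9 monocyte and macrophage, and 7 of 9 T and NK cell markers lay near background. Megakaryocyte markers averaged 6.61 to 7.02 against 5.52 to 6.09 and endothelial markers 7.04 to 7.45 against 5.46 to 5.66. At an adjusted p under 0.05 (limma), 5 of 8 megakaryocyte markers were higher and 3 did not pass. Of 8 endothelial markers, 5 were higher, 1 was lower and 2 did not pass. The part of other cell types in the differences below was not tested, but each member is also given without HSC-enriched replicates 3 and 4 where that alters its call. In bulk samples such as these, fewer cells that express a gene and less of its RNA per cell cannot be told apart, and Lin+ is a mixture of lineages.

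RefSeq promoter windows (GRCm38.p6) were matched for 8 of the 10 genes, with 11 windows in all; Cdkn1c and Rb1 had none. The 250 bases before each start were searched on both strands for the letters of the E2F core, TTCCCGC or the alternative forms TTGGCGC and likewise TTCGCGC and finally TTGCCGC, because pocket proteins act through E2F. The letters occurred in 3 of these 11 windows, belonging to Rbl1, Cdkn2c and Cdkn2a, and in 7.89% of the 32851 windows of all genes. Those 3 windows are shown 5′ to 3′ with the E2F letters in capitals, since Rbl1 and Cdkn2c were lower in HSC-enriched cells and Cdkn2a was not called. The Rbl1 window is chr2:157204535-157204784 (minus strand), with the match 11 to 17 bases before the start. The Cdkn2c window is chr4:109666757-109667006 (minus strand), with the match 19 to 25 bases before the start. The Cdkn2a window is chr4:89294620-89294869 (minus strand), upstream of the outer of its starts, from which Arf is known to be made, with the match 92 to 98 bases before it.
Rbl1: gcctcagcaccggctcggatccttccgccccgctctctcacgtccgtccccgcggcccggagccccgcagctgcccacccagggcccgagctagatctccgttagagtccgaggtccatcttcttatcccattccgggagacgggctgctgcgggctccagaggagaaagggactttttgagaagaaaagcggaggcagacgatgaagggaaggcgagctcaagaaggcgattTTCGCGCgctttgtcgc
Cdkn2c: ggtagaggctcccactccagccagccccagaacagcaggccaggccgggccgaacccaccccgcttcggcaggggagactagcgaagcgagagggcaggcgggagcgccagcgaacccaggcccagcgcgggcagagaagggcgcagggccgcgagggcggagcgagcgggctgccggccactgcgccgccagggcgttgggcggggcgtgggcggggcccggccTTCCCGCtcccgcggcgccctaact
Cdkn2a: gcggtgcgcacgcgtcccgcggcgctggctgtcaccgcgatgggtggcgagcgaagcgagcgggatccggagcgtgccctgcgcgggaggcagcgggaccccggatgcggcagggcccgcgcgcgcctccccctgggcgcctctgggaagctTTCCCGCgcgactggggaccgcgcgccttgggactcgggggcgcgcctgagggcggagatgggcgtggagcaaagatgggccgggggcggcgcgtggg
The matches describe letters only and do not show a bound site. No window of a member held the forkhead letters GTAAACA (3.17% of all windows) or the E-box letters CACGTG (6.02%). The GC box GGGCGG was found in windows of Cdkn1a, Cdkn1b, Cdkn2a, Cdkn2c, Cdkn2d and Rbl1, and in 32.7% of all windows. Of the windows with E2F letters, those of Cdkn2a and Cdkn2c had GC contents of 78.4% and 77.2% and that of Rbl1 63.6%, against a median of 52.4% over all windows.

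Across the 10 genes, 3 were higher in HSC-enriched cells (Cdkn1a, Cdkn1c and Rbl2), 5 were lower (Cdkn1b, Cdkn2c, Cdkn2d, Rb1 and Rbl1) and 2 did not pass (Cdkn2a and Cdkn2b), by limma with a Benjamini-Hochberg adjusted p under 0.05 over all 24011 genes. Over all genes, 27.8% passed, 15.5% as higher and 12.4% as lower. The 4 arrays of one group lay wholly above the 4 of the other for 8 of the 10 members and for 28.9% of all genes. For 5 members the difference was at least 2-fold with an adjusted p under 0.05, against 10.9% of all genes. The members' median difference was -0.32, with a median size of 1.06, beside 0.02 and 0.20 over all genes. These figures for all genes include genes near background, whereas no member lay near background in both groups. By mean level the members ranked at percentiles 47.7 to 95.2 of all genes. By family, the difference had both signs among the members that passed for the Cip/Kip and pocket protein genes but not for the Ink4 genes. The median was 1.14 for the Cip/Kip genes, -0.65 for the Ink4 genes and -0.47 for the pocket protein genes.

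**Figure D1:**
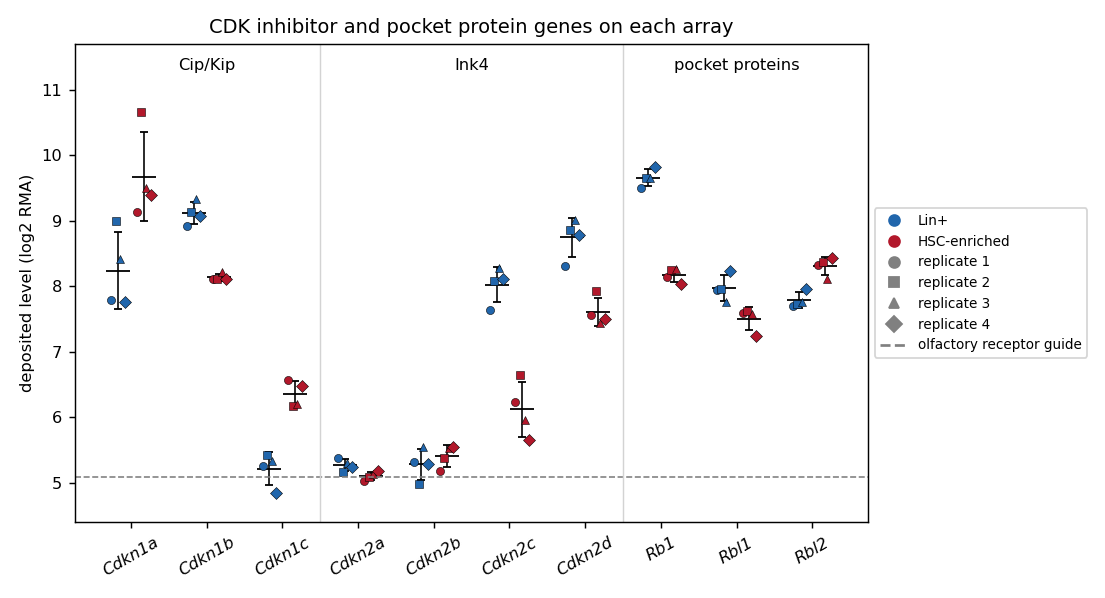
Deposited log2 level of each of the 10 genes (y axis) on the 4 Lin+ arrays (blue) and the 4 HSC-enriched arrays (red); symbols mark the replicate number, bars the group mean ± SD, and the dashed line the 95th percentile of olfactory receptor genes at 5.09. Groups are apart for all genes but Cdkn2a and Cdkn2b, whose points lie close to the line.

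**Figure D2:**
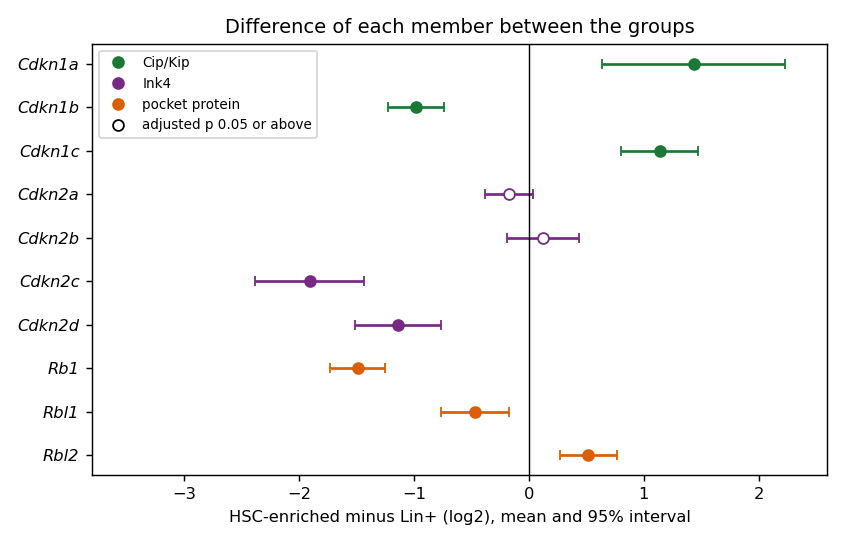
Difference between HSC-enriched and Lin+ means (x axis, log2) with limma's 95% confidence interval for each gene, coloured by family; open circles did not pass at an adjusted p of 0.05. The intervals of Cdkn1a, Cdkn1c and Rbl2 lie wholly to the right of 0 and those of 5 genes wholly to the left, while those of Cdkn2a and Cdkn2b cross 0.

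Among the Cip/Kip genes, Cdkn1a and Cdkn1c were higher in HSC-enriched cells and Cdkn1b was lower. Cdkn1a encodes p21, the inhibitor induced by p53 and by other stress and growth-arrest signals. Its level was 9.14, 10.66, 9.51 and 9.40 on HSC-enriched replicates 1 to 4 and 7.79, 9.002, 8.42 and 7.75 on Lin+ replicates 1 to 4. The groups did not overlap, but only 0.14 separated the lowest HSC-enriched array from the highest Lin+ array. The difference was 1.43 ± 0.36 (SE, n = 4 per group), a 2.70-fold rise with an adjusted p of 0.012 (limma) and a 95% confidence interval of 0.64 to 2.23. Replicate 2 stood highest in both groups, 0.99 and 0.76 above the respective means.

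Cdkn1a was also the most variable member. Its SD of 0.68 among HSC-enriched arrays ranked at percentile 98.3 of all genes, and its SD of 0.59 among Lin+ arrays at percentile 97.6. Over all genes the median SD was 0.18 in either group. The 3 genes whose pattern over the 8 arrays was most like that of Cdkn1a, among 11498 genes above the olfactory receptor guide, were Rasgef1b (Pearson r = 0.979), Rnf24 (r = 0.976) and Zfp654 (r = 0.973). These correlations describe the same 8 arrays and include the difference between the groups. Rasgef1b was 2.72-fold higher in HSC-enriched cells (adjusted p = 0.021, limma), a call lost without Lin+ replicate 1 or 4 (adjusted p = 0.058 and 0.061). Its SD was 0.85 among HSC-enriched and 0.55 among Lin+ arrays.

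Cdkn1c encodes p57, a maternally expressed, imprinted inhibitor. It was at 6.58, 6.17, 6.20 and 6.47 on the HSC-enriched arrays and at 5.26, 5.42, 5.33 and 4.85 on the Lin+ arrays. The groups lay 0.75 apart at their nearest arrays. The difference was 1.14 ± 0.15 (SE), a 2.20-fold rise with an adjusted p of 0.00024 (limma). The Lin+ mean of 5.22 was only slightly above the olfactory receptor guide of 5.09, and Lin+ replicate 4 was below it, so the fold rests on Lin+ values close to background.

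Genes in and around the imprinted cluster of Cdkn1c were examined because they share its chromosomal region. Whether each of them is imprinted in these cells was not tested. Of 11 measured, 6 were higher and 0 lower, beside 15.5% and 12.4% of all genes. The median difference was 0.41, or 0.35 to 0.53 with single arrays left out. It was 0.56 among those kept by a filter at the 40th percentile and 0.70 with a filter at the median level. High levels on the HSC-enriched arrays alone suffice to pass these filters. Phlda2, another maternally expressed gene, was 5.63 ± 0.39 against 3.95 ± 0.21 (SD, n = 4), and passed as higher (adjusted p = 7.8e-05, limma), with a Lin+ mean below the guide, so no fold is given. Slc22a18, next to Cdkn1c, was 3.20-fold higher (adjusted p = 3.6e-05, limma), at 7.15 ± 0.25 against 5.47 ± 0.29. Kcnq1ot1, the paternally expressed noncoding RNA that silences some genes of this region in cis, was 6.57 ± 0.16 against 5.86 ± 0.28, a difference of 0.70 (adjusted p = 0.0051, limma). Osbpl5 had a difference of -0.004 and did not pass, and Kcnq1 and Ascl2 lay near background in both groups, as did Igf2. Kcnq1ot1 is transcribed antisense to Kcnq1, and whether the probes separate the strands is not given in the sources used here. Alleles cannot be told apart in these values.

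Cdkn1b encodes p27, the inhibitor whose protein is known to be controlled largely by degradation. Its HSC-enriched arrays read 8.11, 8.11, 8.22 and 8.11, and its Lin+ arrays 8.93, 9.14, 9.33 and 9.08. All HSC-enriched values lay below all Lin+ values, by at least 0.71. The difference was -0.98 ± 0.11 (SE), a 1.97-fold fall with an adjusted p of 6.8e-05 (limma). Its SD of 0.05 among HSC-enriched arrays ranked at percentile 3.67 of all genes, in contrast to Cdkn1a.

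**Figure D3:**
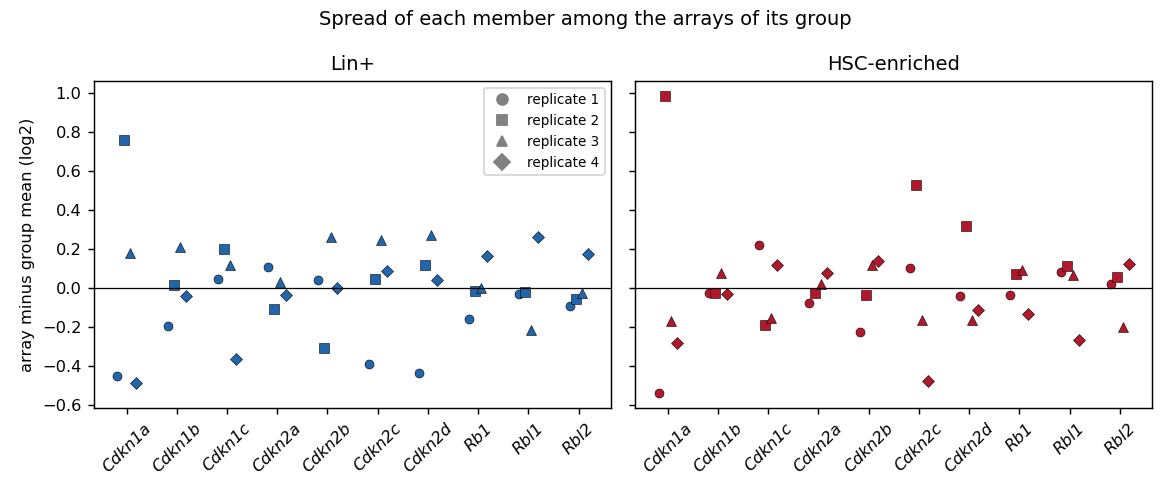
Deviation of each array from the mean of its own group (y axis, log2) for the 10 genes, with Lin+ on the left and HSC-enriched on the right; symbols mark the replicate number. Replicate 2 of Cdkn1a stands 0.76 above the Lin+ mean and 0.99 above the HSC-enriched mean, and Cdkn1b shows almost no spread among HSC-enriched arrays.

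Among the Ink4 genes, Cdkn2c and Cdkn2d were lower in HSC-enriched cells, and Cdkn2a and Cdkn2b did not pass, with group means of 5.11 to 5.41, slightly above the olfactory receptor guide of 5.09. Cdkn2c, which encodes p18, fell most of the 10 members. It was at 6.23, 6.65, 5.96 and 5.65 on HSC-enriched replicates 1 to 4 and at 7.64, 8.08, 8.28 and 8.12 on the Lin+ arrays. The groups were 0.99 apart at their nearest arrays. The difference was -1.91 ± 0.21 (SE), a 3.75-fold fall with an adjusted p of 7.3e-05 (limma). The mean of HSC-enriched replicates 3 and 4, on which neutrophil markers were higher, was 5.81 against 6.44 for replicates 1 and 2. Without replicates 3 and 4 the difference was -1.59 (adjusted p = 0.00065, limma). Over the 10 members, replicates 3 and 4 minus replicates 1 and 2 gave from -0.63 for Cdkn2c to 0.26 for Cdkn2b. On replicates 3 and 4, Cdkn1a (-0.45), Rbl2 (-0.08), Cdkn1c (-0.03), Cdkn1b (0.05) and Cdkn2a (0.10) lay nearer the Lin+ mean. Cdkn2b, Cdkn2c, Cdkn2d (-0.28), Rbl1 (-0.19) and Rb1 (-0.04) lay farther from it.

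The 3 genes most like Cdkn2c over the 8 arrays were Espl1 (Pearson r = 0.994), Gpsm2 (r = 0.993) and Lims1 (r = 0.992). Espl1 encodes separase, the protease that releases sister chromatids, and Gpsm2 a protein that orients the mitotic spindle. Espl1 fell 1.97-fold, Gpsm2 2.51-fold and Lims1 1.59-fold (adjusted p = 0.00029, 0.00031 and 0.0010, limma). As for Cdkn1a, the difference between the groups is part of these correlations.

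Cdkn2d encodes p19Ink4d. It was at 7.57, 7.93, 7.45 and 7.495 in HSC-enriched cells and at 8.31, 8.87, 9.02 and 8.79 in Lin+ cells. The groups were 0.39 apart, the nearest pair being HSC-enriched replicate 2 and Lin+ replicate 1. The difference was -1.14 ± 0.17 (SE), a 2.20-fold fall with an adjusted p of 0.00049 (limma).

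Cdkn2a carries both p16Ink4a and Arf, which share exons in different reading frames, and its single probe set does not separate them. It was at 5.03, 5.08, 5.13 and 5.18 in HSC-enriched cells and at 5.39, 5.17, 5.31 and 5.24 in Lin+ cells, with the groups overlapping. The difference was -0.17 ± 0.10 (SE), with a 95% confidence interval of -0.38 to 0.04 and an adjusted p of 0.24 (limma). Cdkn2b, which encodes p15 and is known as a target of TGF-beta signalling, was at 5.18, 5.38, 5.53 and 5.55 against 5.33, 4.98, 5.55 and 5.29. Its difference was 0.12 ± 0.14 (SE), with an interval of -0.19 to 0.44 and an adjusted p of 0.61 (limma). Both genes lay between 4.98 and 5.55 on every array.

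Polycomb proteins are known to silence the Cdkn2a and Cdkn2b locus, so their genes were read beside it. Of 12 measured, 2 were higher and 1 lower, and the median difference was 0.10. The lower genes numbered 2 without HSC-enriched replicate 4 or Lin+ replicate 3, and also with centring, quantile normalization, either filter or array weights, and the median was 0.20 without HSC-enriched replicate 2. Pcgf2, a paralogue of Bmi1, was 7.04 ± 0.05 against 5.58 ± 0.25, and Phc1 was 7.66 ± 0.10 against 6.41 ± 0.24, rises of 2.76-fold and 2.38-fold (adjusted p = 1.4e-05 and 5.2e-05, limma). Ezh2, a Polycomb histone methyltransferase, fell 1.60-fold (adjusted p = 0.0012, limma). Eed had a difference of -0.06 and did not pass. Bmi1 itself had a difference of -0.04 and did not pass either (adjusted p = 0.88, limma).

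The pocket protein genes went in opposite directions. Rb1, the retinoblastoma gene, was at 8.14, 8.25, 8.26 and 8.04 in HSC-enriched cells and at 9.50, 9.65, 9.66 and 9.83 in Lin+ cells. This was the widest gap of any member, 1.24 between the nearest arrays, with SDs of 0.10 and 0.13. The difference was -1.49 ± 0.11 (SE), a 2.81-fold fall with the lowest adjusted p of the 10 members (3.9e-06, limma).

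Rbl1 encodes p107, a pocket protein known to be made mostly in cycling cells. It was at 7.59, 7.62, 7.58 and 7.24 in HSC-enriched cells and at 7.95, 7.96, 7.76 and 8.24 in Lin+ cells, 0.14 apart at the nearest arrays. Replicate 4 was the lowest HSC-enriched array and the highest Lin+ array. The difference was -0.47 ± 0.13 (SE), a 1.39-fold fall with an adjusted p of 0.022 (limma). That call was lost without HSC-enriched replicate 4 (-0.38, adjusted p = 0.056) or Lin+ replicate 4 (-0.38, adjusted p = 0.061), when HSC-enriched replicates 3 and 4 were both left out (-0.37, adjusted p = 0.136), and against a null of 1.2-fold (adjusted p = 0.298).

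Rbl2 encodes p130, the pocket protein that dominates in quiescent cells. It was at 8.33, 8.37, 8.11 and 8.43 in HSC-enriched cells and at 7.70, 7.73, 7.76 and 7.96 in Lin+ cells, 0.14 apart at the nearest arrays. The difference was 0.52 ± 0.11 (SE), a 1.43-fold rise with an adjusted p of 0.0050 (limma). It did not pass against a null of 1.2-fold (adjusted p = 0.107). The 95% confidence intervals of the pocket protein genes were -1.73 to -1.25 for Rb1, -0.77 to -0.17 for Rbl1 and 0.27 to 0.77 for Rbl2. Whether these differences differ from each other was not tested.

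**Figure D4:**
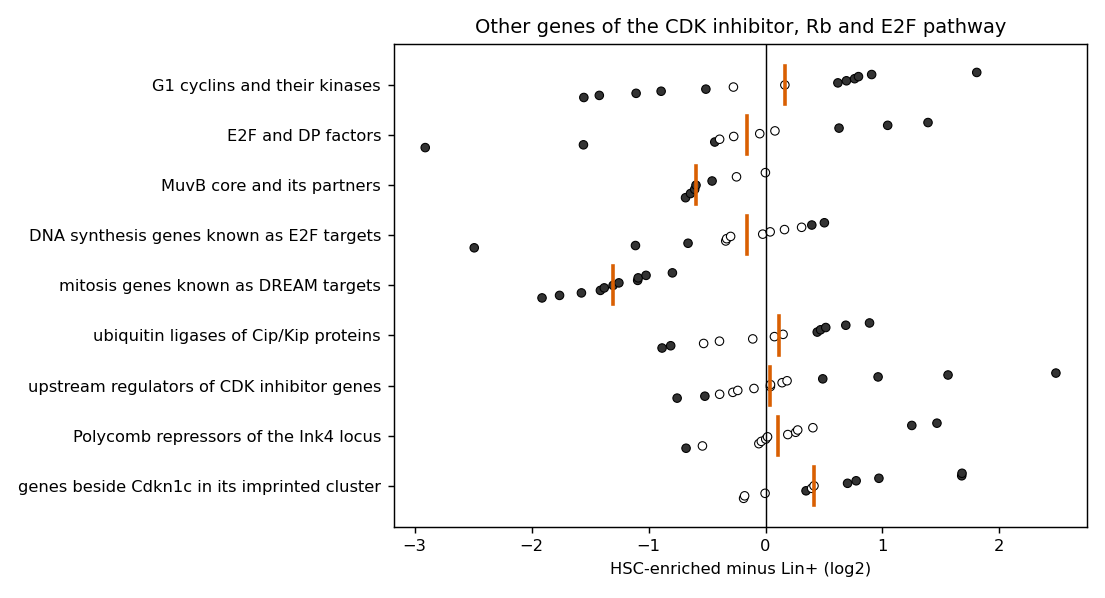
Difference between HSC-enriched and Lin+ means (x axis, log2) for each measured gene of 9 lists read beside the members. The list of genes beside Cdkn1c was chosen by position and the others by pathway. Filled points passed at an adjusted p of 0.05 and orange bars are list medians. The points of the mitosis list all lie left of 0, with a median of -1.30, while the cyclin and E2F lists, among others, have filled points on both sides.

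The list of G1 cyclins and their kinases, which also holds the CDK activators Cdk7, Ccnh, Mnat1 and Cdc25a, was also unequal. Of 13 genes, 6 were higher and 5 lower, and the median difference was 0.17, with a range of 0.060 to 0.33 when single arrays were left out, lowest without Lin+ replicate 1 and highest without Lin+ replicate 4. Ccnd2, which encodes the D-type cyclin D2, was 9.91 ± 0.11 against 8.10 ± 0.29, a 3.50-fold rise (adjusted p = 8.0e-06, limma), and Ccnh, a subunit of the CDK-activating kinase, rose 1.88-fold (adjusted p = 0.00055). Ccne1 and Ccna2, cyclins of the G1/S boundary and of S phase, fell 2.94-fold and 2.68-fold (adjusted p = 0.00011 and 1.1e-05, limma). The D-type cyclins divided: Ccnd1 rose by 0.62 and Ccnd3 fell by 1.11 (adjusted p = 0.0045 and 5.0e-05, limma). Cdk4 and Cdk6, the kinases bound by Ink4 proteins, rose by 0.76 and 0.69 (adjusted p = 0.00097 and 0.0077, limma), whereas Cdk2 had a difference of -0.27 and did not pass (adjusted p = 0.39).

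E2F and DP genes, only some of which encode partners of the pocket proteins, gave 3 higher, 3 lower and 4 not passing of 10. Their median was -0.16 (-0.21 to -0.089 with single arrays left out, nearest 0 without HSC-enriched replicate 4). E2f2, an activator, was 5.03 ± 0.27 against 7.94 ± 0.20, and fell (adjusted p = 6.8e-07, limma); its HSC-enriched mean lay below the background guide, so no fold is given. E2f8, an atypical repressor, fell 2.94-fold. E2f6 and E2f5, both repressors, rose 2.62-fold and 2.06-fold (adjusted p = 3.6e-05 and 0.0018, limma). Tfdp1, the dimer partner DP1, had a difference of -0.27 and did not pass (adjusted p = 0.077), but did so when HSC-enriched replicate 1 was left out (-0.33, adjusted p = 0.046) or with trend and robust estimates (adjusted p = 0.047). E2f4, the main partner of Rbl2 in DREAM, had a difference of -0.39 and did not pass (adjusted p = 0.10, limma), with its arrays not overlapping.

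Of the MuvB core and its partners, 5 of 7 were lower and 2 did not pass, with a median of -0.59. The median was -0.64 to -0.46 with single arrays left out, nearest 0 without HSC-enriched replicate 4. It was -0.49 without HSC-enriched replicates 3 and 4. Foxm1, which takes over MuvB in G2, fell 1.61-fold (adjusted p = 0.0032, limma). Lin54, the DNA-binding subunit, fell 1.56-fold (adjusted p = 0.022), though with overlapping arrays, and lost that call when HSC-enriched replicate 3 or Lin+ replicate 2, 3 or 4 was left out (adjusted p = 0.054 to 0.062). The count of lower genes was 3 without Lin+ replicate 2 or 3 and without HSC-enriched replicates 3 and 4 together. Against a null of 1.2-fold it was 2. Rbbp4 had a difference of -0.001.

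Known targets of these complexes were read as 2 lists. All 11 measured mitosis genes known as DREAM targets fell, with a median of -1.30; Plk1 and Ube2c fell 3.76-fold and 3.39-fold (adjusted p = 6.0e-05 and 0.00010, limma). Of 12 DNA synthesis genes known as E2F targets, 2 were higher, 3 were lower and 7 did not pass, with a median of -0.16 (-0.21 to -0.074 with single arrays left out, nearest 0 without HSC-enriched replicate 4, and -0.038 without both HSC-enriched arrays 3 and 4). Rrm2, a ribonucleotide reductase subunit, was 7.19 ± 0.12 against 9.68 ± 0.17, a 5.62-fold fall (adjusted p = 3.8e-07, limma), and Cdc6, a licensing factor, fell 2.16-fold. Mcm6, a subunit of the replicative helicase, rose 1.42-fold (adjusted p = 0.010, limma). It did not pass against a null of 1.2-fold (adjusted p = 0.173, limma), with which 0 genes of the list were higher. Pola1 rose 1.32-fold (adjusted p = 0.024), a call lost without HSC-enriched replicate 1 or 2 or Lin+ replicate 1, 2 or 3 (adjusted p = 0.054 to 0.071), so that 1 DNA synthesis gene was then higher. Without Lin+ replicate 1, 5 were lower. Pcna had a difference of 0.16 and did not pass, except after quantile normalization (0.37, adjusted p = 0.019), with which 4 genes of the list were higher. Whether the 2 target lists differ from each other was not tested.

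Genes acting on the inhibitors themselves were mixed. Of 12 genes of the ubiquitin ligases that degrade Cip/Kip proteins, 5 were higher, 2 were lower and 5 did not pass (median 0.11, or 0.026 to 0.25 with single arrays left out, lowest without HSC-enriched replicate 3 and highest without replicate 4). Skp1 and Cul1, core subunits of the SCF ligase, rose 1.85-fold and 1.61-fold (adjusted p = 0.0060 and 0.00040, limma). Rnf123 and Ubac1, which form the ligase for p27 in G1, fell 1.75-fold and 1.85-fold (adjusted p = 0.0019 and 0.0042, limma). Skp2, the subunit that recognises p27, had a difference of -0.53 and did not pass (adjusted p = 0.080), and Rbx1 had one of 0.08. Of 14 upstream regulators, 4 were higher, 2 were lower and 8 did not pass (median 0.04, or -0.016 to 0.11 with single arrays left out, below 0 without HSC-enriched replicate 4 and highest without Lin+ replicate 3). Hes1, a Notch target that represses Cdkn1b, was at 8.14, 10.08, 9.46 and 8.65 on HSC-enriched replicates 1 to 4 and at 6.35 to 6.72 on Lin+ arrays, a 5.59-fold rise (adjusted p = 0.00035, limma). Myc, known to repress Cdkn1a and Cdkn2b with Zbtb17, rose 2.95-fold (adjusted p = 1.1e-05). Foxo1 and Tgfbr2 fell 1.69-fold and 1.43-fold (adjusted p = 0.0031 and 0.0030), while Foxo3 and Smad3 rose by 0.49 and 0.96 (adjusted p = 0.0061 and 0.00019). Mdm4, an inhibitor of p53, had a difference of 0.04. Trp53 and Ccnb1, also on these lists, were not analysed here.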

How the data were processed

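RNA of 4 Lin+ and 4 HSC-enriched samples was amplified and hybridised to Affymetrix MouseGene arrays (1.0st and 2.0st are named per the labels' protocols, without saying which sample went on which). The authors deposited log2 values of 24973 probe sets, 1 per Entrez gene ID; the submitters' processing notes name Partek and RMA and give no version. RMA corrects background, quantile normalizes and summarises probes, and no detection call was used. A platform table named 24015 probe sets, 23922 symbols were updated through RefSeq (GRCm38.p6, names only), and the brightest probe set per symbol left 24011 genes. Groups were compared with limma 3.58.1 (R 4.3.3) without covariates, adjusted by Benjamini-Hochberg over all genes, with no filter. The number of arrays limits the precision.

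The guide to background was the 95th percentile (5.09) of the means of 1091 olfactory receptor genes. Members and lists were chosen with earlier results of these data known. Genes named were every member, up to 2 passing genes with the largest rise and fall and the brightest not passing gene of each list, and the 3 genes most correlated with the highest and lowest member. Predicted or unnamed loci, small RNAs and receptor segments were left out of the last. Ccnd1, Ccnd3, Cdk4, Cdk6, E2f4, Kcnq1ot1, Bmi1, Skp2, Foxo3 and Smad3, and the genes named for being near background, were added after their values were seen. On simulated data for 24011 genes, with independent noise and 100 genes changed at each fold, the fit recovered 77% of 2-fold and 97% of 4-fold changes. It also called 6 unchanged genes. Far more genes (6685) passed in the real comparison, so these rates may not hold for it. Alternatives were other scalings, filters, probe set averaging, variance models, a replicate block, weights per array, a 1.2-fold null and arrays left out. Figures used matplotlib 3.10.9.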

Additional observations from a re-analysis of the deposited data

Results flagged for a closer look

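In 8 of 106 groups of 4 arrays, over the members and the other named genes, 1 array lay far from the others by Dixon's test, where chance gives about 1 in 20. Of the members, Cdkn1b was at 8.22 on HSC-enriched replicate 3 against 8.11 on each of the other arrays, a small gap in a tight group. Rbl1 was at 7.24 on HSC-enriched replicate 4 against 7.58 to 7.62 on the others. Plk1 was likewise low on that array, at 6.61 against 7.51 to 7.62. Ccnd2 was at 9.74 on HSC-enriched replicate 1 against 9.95 to 9.96 on the others. Myc was at 9.89 and Zfp654 at 7.995 on HSC-enriched replicate 2, the former below and the latter above the other arrays. Among Lin+ arrays, Foxm1 was at 8.96 on replicate 1 and Pcna at 11.299 on replicate 3.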

How the results depend on the processing

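Over 18 alternatives (17 for Cdkn2a, which 1 filter removed), Cdkn1a, Cdkn1b, Cdkn1c, Cdkn2c, Cdkn2d and Rb1 kept their direction and call, with differences of 1.11 to 1.69, -1.04 to -0.91, 1.02 to 1.21, -2.08 to -1.59, -1.28 to -0.9999 and -1.54 to -1.42. Rbl1 kept its call in 13 and Rbl2 in 17. With the replicate number as a block, 4 members were lower instead of 5, Rbl1 (adjusted p = 0.071) losing its call, and 6122 genes passed instead of 6685. Deviations of same-numbered arrays correlated at -0.15 to 0.06, so the numbers are not shown to pair the samples. Against a null of 1.2-fold, 4188 genes passed. Neither centring nor quantile normalization moved the median of all genes by over 0.1.

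Cdkn2b, not called, turned from 0.12 to -0.0059 without both HSC-enriched arrays 3 and 4. Other genes that did not pass also changed sign, and the cause was not tested. Rbbp4 was at 0.065 with quantile normalization, at 0.20 without both HSC-enriched arrays and at -0.090 to 0.10 with single arrays left out. Eed was at 0.027 with quantile normalization, and Osbpl5 at 0.0017 with array weights and -0.089 to 0.071 with single arrays left out. Mdm4 was at -0.017 without both arrays and -0.024 to 0.10 with single ones left out, and Rbx1 at -0.034 to 0.32. The median of the upstream regulators was -0.016 to 0.11 with single arrays left out. Of the list counts, 22 moved by over 1.5 times and 302 did not. Of the list medians, 12 moved by more than the spread between replicates, 1 changed sign and 149 did neither. The number of arrays, 4 per group, limits what could be seen.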
